A study of Mus musculus with 8 samples.

Results

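The genes described here are *Svip* and 8 other genes of endoplasmic reticulum (ER)-associated degradation, ERAD, in interscapular brown adipose tissue (BAT). *Svip* was picked for its stable fall in the libraries labelled HuR KO BAT, and *Vcp*, *Derl1*, *Derl2*, *Syvn1*, *Sel1l*, *Edem1*, *Herpud1* and *Os9* were chosen by their role in the same pathway. All 9 are among the 33641 genes of the deposited tables and among the 14851 genes with enough counts to be tested. RNA-seq was done on BAT of C57BL/6 mice aged 28 weeks, to find the genes whose RNA depends on HuR, an RNA-binding protein encoded by *Elavl1*. The mice labelled HuR KO carry floxed *Elavl1* alleles and a Cre recombinase driven by the adiponectin promoter, so that the deletion is expected in adipocytes and not in the other cells of the tissue. Their controls, labelled wild-type, were littermates of mixed genotypes, some with Cre and no floxed allele and some with floxed alleles and no Cre, and the labels do not say which library is which, nor the sex or diet of any mouse. The labels give 3 control libraries (A7, A8 and A12) and 5 libraries labelled KO (A24, A25, A26, A29 and A31), each taken as 1 animal. These group sizes are the reverse of those given with the study's RNA-seq plots. The groups here follow the labels. Total counts lay between 50673814 and 60622522 in the control libraries. Among the libraries labelled KO they were 18264754 in A24, 17558090 in A25 and between 50893173 and 67498055 in the others.

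ERAD removes misfolded proteins from the ER. Lectins such as OS9 and mannosidase-like proteins such as EDEM1 mark glycoproteins for removal, the SEL1L and HRD1 (*Syvn1*) complex with the derlins and HERPUD1 passes them through the membrane and ubiquitinates them, and the ATPase p97 (*Vcp*) pulls them into the cytosol for the proteasome. SVIP, the small VCP-interacting protein, sits on the ER membrane, binds p97 and derlin-1, and inhibits this step. In brown adipocytes, SEL1L and HRD1 are needed for normal mitochondria and heat production, and the transcription factor NFE2L1, which maintains proteasome levels in the cold, is itself processed through ERAD and p97.

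*Elavl1*, the targeted gene, was read first. Its level, in counts per 1000000 scaled by edgeR's TMM factors (CPM), was 50.6, 48.0 and 49.2 in A7, A8 and A12. It was 61.9, 47.3, 43.4, 61.3 and 61.2 in A24, A25, A26, A29 and A31. Among the libraries labelled KO *Elavl1* was thus not lower, as 3 of 5 values lay above every control and 2 below. The log2 fold change was 0.16 (SE 0.16, edgeR adjusted p = 0.667). These sums take in all cells of the tissue, while the deletion is expected in adipocytes only. Which exons are removed is not given in the sources used here, so total *Elavl1* cannot decide whether the labels are right. The study shows HuR protein by Western blot, which was not measured here. The study reports most of its changed genes, and almost all of the calcium cycling genes it lists, as decreased in knockout BAT. Here, 26 contractile markers of skeletal muscle summed to 2569 ± 2279 CPM in control and 188 ± 208 CPM in libraries labelled KO. In the other direction, A12 (control, 119 CPM) lay below A31 (labelled KO, 559 CPM). Whether labels were exchanged was not tested. Every direction below is that of libraries labelled KO against libraries labelled control.

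*Svip* lies on chromosome 7 of GRCm38 (chr7:51997171-52006018, minus strand). Its level was 30.6, 29.9 and 34.7 CPM in A7, A8 and A12. In the libraries labelled KO it was 13.4, 12.1, 11.6, 9.60 and 10.6 CPM in A24, A25, A26, A29 and A31. On this scale the lowest control, 29.9 CPM, lay well above the highest library labelled KO, 13.4 CPM, and each group lay close together. With counts divided by total counts alone the gap was smaller. There A7, A8 and A12 were at 31.1, 22.8 and 32.8, and the libraries labelled KO at 9.96 (A29) to 14.6 (A25). The mean was 31.7 ± 2.63 CPM (SD) over the 3 controls, against 11.5 ± 1.45 CPM over the 5 others. The log2 fold change was -1.47 (SE 0.145), or a fall of 63.9% on the means of CPM. Because *Svip* was selected on this contrast, these values are a description and no test is given. They rest on between 237 counts (A24) and 1887 counts (A7) per library. In bulk tissue, fewer cells that express a gene and less of its RNA per cell cannot be told apart.

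**Figure D1:**
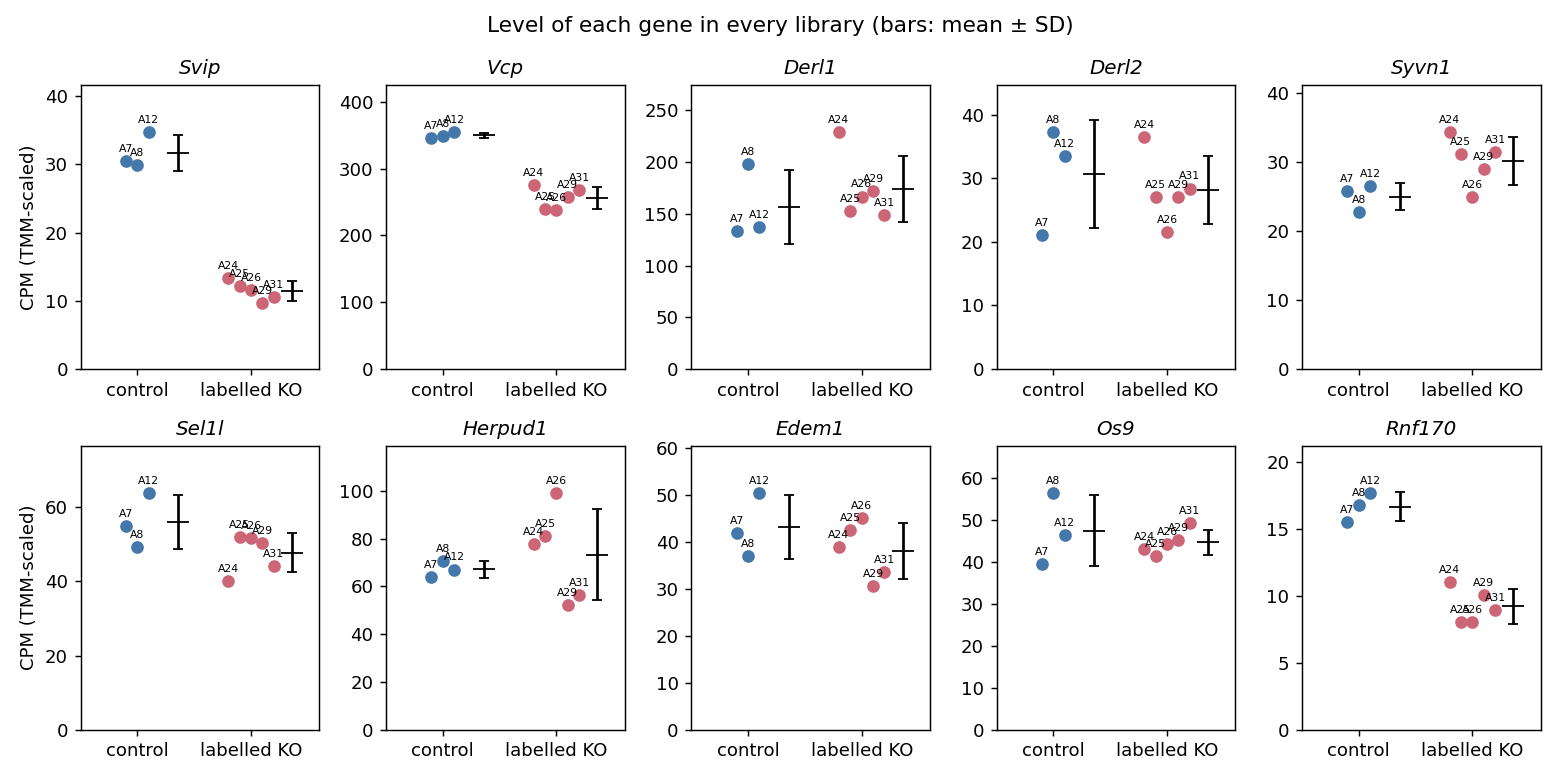
Level of the 9 members and *Rnf170* in each library, in TMM-scaled CPM on axes that start at 0. Points are libraries, blue for control (n = 3) and red for libraries labelled KO (n = 5), and black bars are the mean ± SD. For *Svip*, *Vcp* and *Rnf170* every red point lies below every blue one, and for the other 7 genes the groups overlap. With total counts *Vcp* overlaps and *Derl1* does not.

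The libraries differed in RNA from skeletal muscle, and its markers are given here beside *Svip*. The 26 contractile markers summed to 4627, 2962 and 119 CPM in A7, A8 and A12. They summed to 115, 76.2, 80.4, 111 and 559 CPM in A24, A25, A26, A29 and A31. Of these markers 3 of 26 were past the threshold of the gene test, where 0.707% of all genes were. The most abundant, *Myh4*, was at 1048 CPM in A7, 457 in A8, 106 in A31 and at 0 in A25, A26 and A29. *Svip* was highest in A12, the control with the least muscle RNA, and among the libraries labelled KO its level in A31 lay inside the range of the 4 with little muscle RNA. Without A7, A8 and A31, which leaves A12 as the only control, its log2 fold change was -1.58. Whether muscle RNA plays a part in the level of *Svip* was not tested. The 2 libraries with the fewest counts, A24 and A25, had the highest *Svip* of their group, and without them the log2 fold change was -1.59.

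The tissue label fits the markers measured, as *Ucp1*, which encodes the uncoupling protein of brown fat, was between 4251 CPM (A25) and 11438 CPM (A8), the most abundant of 8 brown adipocyte markers. That list summed to 12945 ± 4921 CPM in control and 12120 ± 3136 CPM in libraries labelled KO, and 6 general adipocyte markers, led by *Fabp4*, to 15832 ± 5344 and 13726 ± 2419 CPM. Macrophage markers, led by *Lyz2*, summed to 74.6 ± 41.2 and 67.0 ± 18.04 CPM, and lymphocyte markers, led by *Cd3d*, to 1.19 ± 0.340 and 1.77 ± 0.588 CPM. Endothelial markers, led by *Cdh5*, summed to 408 ± 53.3 and 467 ± 93.4 CPM, and Schwann cell markers, led by *Mbp*, to 102 ± 18.9 and 73.9 ± 15.0 CPM (SD, n = 3 and 5). No tested gene of these 6 lists was past the threshold, and no marker of them was at 0 in any library. Their part in the levels of *Svip* was not tested.

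Nearly all *Svip* reads were assigned to 1 transcript. The transcript, with 4 exons, 3053 bases and a 3′ UTR of 2592 bases, held 99.1% of the estimated counts, at 31.5 ± 2.67 CPM in control and 11.2 ± 1.23 CPM in libraries labelled KO. The other 2, a short coding transcript of 487 bases and one that retains an intron, shared the remainder. The lower level was thus that of the full-length coding transcript.

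*Vcp* encodes p97, the ATPase that SVIP binds. Its level was 346, 348 and 355 CPM in A7, A8 and A12, and 276, 239, 238, 257 and 269 in A24, A25, A26, A29 and A31. On this scale the controls lay close together and above the libraries labelled KO. The groups overlapped when counts were divided by total counts alone, with A8 at 266 against 238 to 302 in libraries labelled KO, and there the log2 fold change was -0.22. The means were 350 ± 4.23 and 256 ± 17.0 CPM, with a log2 fold change of -0.45 (SE 0.137, 95% interval -0.75 to -0.15). In edgeR's quasi-likelihood test the adjusted p over all genes was 0.132, so *Vcp* was not past the threshold of an adjusted p of at most 0.05 and a fold of at least 1.5. With DESeq2's Wald test its adjusted p was 0.00563, the smallest over the alternatives run, which reached up to 0.472, and its fold of 1.37 was under 1.5 in each. Of the 14851 genes tested, 105 or 0.707% were past the threshold, 69 lower and 36 higher in libraries labelled KO (25 lower and 96 higher with total counts). The groups had no overlap for 11.5% of all genes. *Vcp* is the 1 of the 8 members other than *Svip* whose groups did not overlap on the TMM scale, a share of 12.5% and close to that background. With total counts that 1 was *Derl1*, higher in libraries labelled KO, against 13.3% of all genes. A copy named *Vcp-rs*, which could share reads with it, was at 0.310 CPM or less in every library.

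On the TMM scale, the groups overlapped for each member in the membrane part of the pathway. Derlin-1, encoded by *Derl1*, forms part of the retrotranslocation channel and recruits p97. Its level was 134, 198 and 137 CPM in A7, A8 and A12, and 229, 152, 167, 172 and 149 in A24, A25, A26, A29 and A31. A24 stood above all others and the groups overlapped, with a log2 fold change of 0.15 (SE 0.20, edgeR adjusted p = 0.750). With 1 library left out it was 0.050 without A7, 0.36 without A8, 0.068 without A12 and 0.023 without A24. *Derl2*, its paralogue, was at 21.1, 37.2 and 33.5 CPM in A7, A8 and A12, and at 36.4, 27.1, 21.6, 27.03 and 28.4 in A24, A25, A26, A29 and A31. The controls alone spanned the whole range of the other group, and the log2 fold change was -0.12 (SE 0.216, edgeR adjusted p = 0.819), a direction that turned with scaling by total counts and, at 0.047, without A8. *Derl2* shares bases with *Mis12* on the opposite strand, and reads from the overlap could belong to either.

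*Syvn1* encodes HRD1, the ubiquitin ligase at the centre of the complex. Its level was 25.8, 22.7 and 26.5 CPM in A7, A8 and A12, and 34.3, 31.2, 24.97, 28.95 and 31.5 in A24, A25, A26, A29 and A31. In 4 of 5 libraries labelled KO it was above every control, with A26 inside the control range, and the log2 fold change was 0.27 (SE 0.146, 95% interval -0.05 to 0.59, edgeR adjusted p = 0.378). Its end overlaps *Mrpl49* on the opposite strand. *Sel1l*, which encodes the partner that stabilizes HRD1, was at 55.1, 49.2 and 63.9 CPM in A7, A8 and A12, and at 40.2, 52.1, 51.7, 50.2 and 44.2 in A24, A25, A26, A29 and A31. A8 lay among the libraries labelled KO, so the groups overlapped, with a log2 fold change of -0.23 (SE 0.150, edgeR adjusted p = 0.469), or -0.0090 with total counts and -0.13 without A12. *Herpud1*, a stress-induced organizer of the HRD1 complex, was at 63.8, 70.7 and 67.1 CPM in A7, A8 and A12, and at 77.6, 81.3, 99.2, 52.3 and 56.5 in A24, A25, A26, A29 and A31. The controls lay between the 3 higher and the 2 lower libraries labelled KO, whose SD of 19.2 CPM compares with 3.47 CPM in control, and the log2 fold change was 0.13 (SE 0.212, edgeR adjusted p = 0.810), or -0.0055 without A26.

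The 2 members on the luminal side, which read the glycans of misfolded proteins, also overlapped between groups. *Edem1*, whose product takes part in mannose trimming, was at 41.9, 37.0 and 50.4 CPM in A7, A8 and A12, and at 38.9, 42.5, 44.9, 30.6 and 33.6 in A24, A25, A26, A29 and A31. The lowest values were those of A29 and A31, and the log2 fold change was -0.18 (SE 0.171, edgeR adjusted p = 0.646). It was -0.052 without A12, -0.37 with the contractile markers as a covariate and 0.040 with total counts. *Os9*, which encodes a lectin that hands trimmed glycoproteins to SEL1L, was at 39.4, 56.4 and 46.5 CPM in A7, A8 and A12, and at 43.1, 41.4, 44.2, 45.2 and 49.2 in A24, A25, A26, A29 and A31. All 5 libraries labelled KO lay inside the control range, and the log2 fold change was -0.09 (SE 0.149, edgeR adjusted p = 0.815), with the opposite sign under total counts and, at 0.061, without A8. Of the 8 members other than *Svip*, 0 were past the threshold with edgeR, 0 with DESeq2 and 0 with limma voom, and 1 (*Vcp*) had an unadjusted p under 0.05 with edgeR, where 17.0% of all genes did. Their median log2 fold change was -0.11 (0.15 with total counts, from -0.22 for *Vcp* to 0.49 for *Syvn1*).

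Between genes, levels can be compared only per length, as transcripts per 1000000 (TPM), computed here from the estimated counts and the annotated transcript lengths. In control, *Vcp* was the most abundant of the 9 at 138 ± 39.0 TPM, followed by *Derl1* at 61.6 ± 7.16 and *Herpud1* at 50.4 ± 15.2 TPM. *Derl2* was at 28.3 ± 3.87 and *Os9* at 23.6 ± 2.73 TPM. *Svip* came next at 14.1 ± 4.20 TPM, with *Sel1l* at 13.6 ± 5.49, *Edem1* at 12.9 ± 2.82 and *Syvn1* at 10.8 ± 3.53 TPM. The spread over the 3 controls separated *Vcp* from *Derl1*, *Herpud1* from *Derl2* and *Os9* from *Svip*, and no other neighbours in this order. The place of *Derl2* depends on the length used, as with the longest transcript's length it was at 9.77 TPM in control, place 8 of the 9. *Svip*, *Sel1l*, *Edem1* and *Syvn1* were thus not separated in control. In libraries labelled KO, *Svip* was at 6.05 ± 1.29 TPM (SD, n = 5), the last of the 9, and its highest value there, 7.82 TPM in A25, lay below the lowest of any other member, 9.76 TPM for *Sel1l* in A24.

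Within 1 library, the ratio of *Vcp* to *Svip* RNA per length does not depend on how libraries are scaled. It was 10.1, 10.4 and 9.25 in A7, A8 and A12, and 15.0, 16.4, 18.9, 24.8 and 21.5 in A24, A25, A26, A29 and A31. RNA of the ATPase outnumbered that of its inhibitor in every library, by 9.90 ± 0.592 in control and 19.3 ± 3.95 in libraries labelled KO. The change in this ratio follows from the values that selected *Svip*, and is not a separate result.

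The 8 other members have 44 annotated transcripts. Of these 31 had enough counts to be tested, and 0 were past the threshold in edgeR's test over 41808 transcripts, in which 0.00957% of all transcripts were. The groups had no overlap for 3 of the 31, near the 7.50% of all transcripts. With edgeR 3 of the 31 had an unadjusted p under 0.05, where 8.17% of all transcripts did, and the smallest adjusted p was 0.321, that of the coding *Vcp* transcript that held 99.7% of the gene's counts. Its level was 349 ± 4.25 CPM in control and 255 ± 17.2 CPM in libraries labelled KO, the pattern of the gene. Of *Syvn1*, a coding transcript of 16 exons was at 6.64 ± 0.578 and 11.4 ± 2.76 CPM without overlap (edgeR adjusted p = 0.529), while its most abundant transcript, also coding, was at 13.1 ± 2.80 and 13.05 ± 6.48 CPM. The *Edem1* transcript annotated as a target of nonsense-mediated decay was at 2.56 ± 0.405 and 1.13 ± 0.309 CPM without overlap (edgeR adjusted p = 0.424).

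In the wider pathway, 1 gene was past the threshold. *Rnf170* encodes an ER membrane ubiquitin ligase that works with the erlins in the ERAD of activated IP3 receptors, the calcium release channels of the ER. It lies on chromosome 8 (chr8:26119368-26151790, plus strand), and its level was 15.5, 16.8 and 17.7 CPM in A7, A8 and A12, and 11.1, 8.07, 8.06, 10.04 and 8.95 in A24, A25, A26, A29 and A31. All 5 libraries labelled KO lay below all 3 controls, with A12, low in muscle RNA, the highest and A31 inside the range of its group. *Rnf170* fell from 16.7 ± 1.08 to 9.23 ± 1.30 CPM, with a log2 fold change of -0.85 (SE 0.154, 95% interval -1.20 to -0.51, edgeR adjusted p = 0.0444). The adjusted p is close to the threshold. It was 0.0422 without A24, but 0.106 without A7, 0.0605 without A8, 0.0796 without A12, 0.119 without A25, 0.0923 without A26, 0.0998 without A29 and 0.0947 without A31. Over the alternatives with more than 1 control it lay between 0.000105 (DESeq2) and 0.186 (contractile markers as a covariate). The log2 fold change stayed between -0.93 and -0.63 over all alternatives. Most of its counts, 84.9%, belonged to 1 coding transcript.

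Of the 84 genes in 3 wider lists, chosen for their role, 82 were tested. Lower in libraries labelled KO and past the threshold was 1 of them, where 0.465% of all genes were, and 0 were past it in the other direction. The groups did not overlap for 8 lower genes, where 6.09% of all genes were lower without overlap, and for 1 higher gene, where 5.37% of all genes were. With total counts these were 2 lower and 9 higher genes, near the 1.45% and 11.9% of all genes there. The median log2 fold change of the 82 was -0.10, against 0.00 for all genes tested, and 0.13 against 0.23 when libraries were scaled by total counts. DESeq2's Wald test put 2 of the 82 past the threshold, *Rnf170* and *Mogs*, with 5.51% of all genes called, and limma voom 1, *Rnf170*, with 1.06% called.

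**Figure D2:**
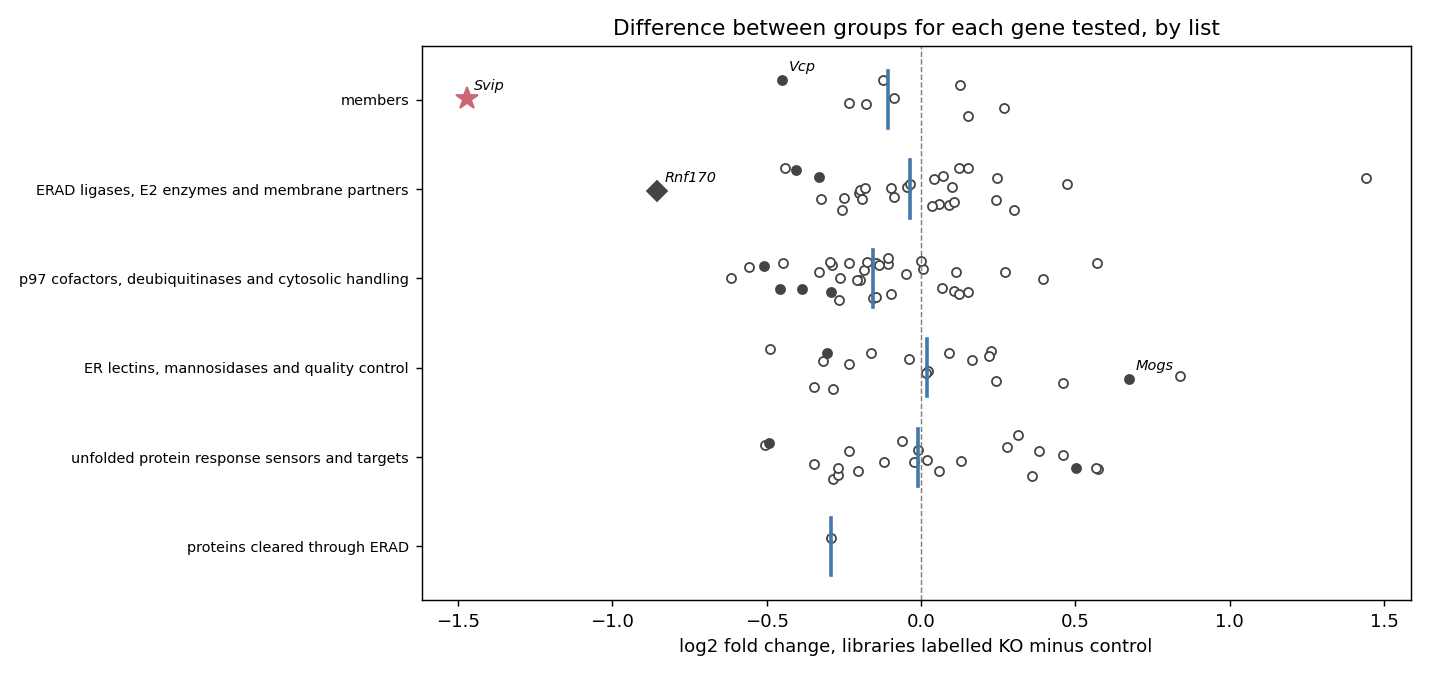
Log2 fold change of each tested gene, libraries labelled KO minus control (x axis), by list (rows, with points spread vertically for legibility). Filled circles are genes whose groups did not overlap, the diamond is *Rnf170*, past the threshold, the star is *Svip*, which was chosen by this value, and blue lines are medians without *Svip*. Medians of the lists with more than 1 gene lie between -0.16 and 0.02, and between 0.08 and 0.27 with libraries scaled by total counts.

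Among the ligases, ubiquitin-conjugating (E2) enzymes and membrane partners, 29 of 30 were tested and the median was -0.04 (0.21 with total counts). Groups did not overlap for 3 of these 29, near the 11.5% of all genes. Beside *Rnf170* these were 2 E2 enzymes of ERAD, *Ube2j1* at 43.7 ± 5.03 and 34.8 ± 2.52 CPM (edgeR adjusted p = 0.251) and *Ube2g1* at 26.2 ± 1.06 and 19.8 ± 2.66 CPM (edgeR adjusted p = 0.184). Another E2 enzyme, *Ube2j2*, had the opposite direction, at 22.7 ± 3.06 and 31.5 ± 5.67 CPM with overlap (edgeR adjusted p = 0.224). *Erlin1*, a partner of RNF170, was at 11.3 ± 1.37 and 8.37 ± 2.29 CPM, and its groups overlapped through A24 (edgeR adjusted p = 0.377). *Derl3*, named here after its values were seen, had the highest log2 fold change of the list, 1.44, at a mean of 0.0811 ± 0.0744 CPM in control and 0.2502 ± 0.114 CPM in libraries labelled KO, near the 0.169 CPM that 3 counts make in A24 on this scale.

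Of the p97 cofactors, deubiquitinases and cytosolic factors, 35 of 36 were tested, 0 passed the threshold with edgeR, DESeq2 or limma voom, and the median was -0.16 (0.08 with total counts). At an unadjusted p under 0.05, edgeR put 7 of the 35, near the 17.0% of all genes. Groups did not overlap for 4 of the 35, near the 11.5% of all genes. *Aspscr1*, which encodes the p97 cofactor also known as TUG or UBXD9, was at 26.7 ± 3.21 and 18.8 ± 2.52 CPM (log2 fold change -0.51, edgeR adjusted p = 0.130). *Ubxn4*, which encodes erasin, a membrane protein that brings p97 to the ER, was at 103 ± 5.04 and 78.6 ± 11.4 CPM (edgeR adjusted p = 0.240). *Ngly1*, the cytosolic enzyme that removes glycans from ERAD substrates and from NFE2L1, was at 52.4 ± 9.35 and 38.2 ± 1.91 CPM (log2 fold change -0.46, edgeR adjusted p = 0.145), and *Plaa*, a ubiquitin-binding p97 cofactor, at 60.3 ± 5.45 and 49.3 ± 6.56 CPM (edgeR adjusted p = 0.365). The largest difference of the list with a mean of at least 5 CPM was that of *Ubxn8*, a membrane tether of p97, at 16.9 ± 4.01 and 11.03 ± 1.37 CPM. Its groups met at A7, with 12.4 CPM, and A29, with 12.5 CPM (log2 fold change -0.61, edgeR adjusted p = 0.131). *Usp19*, an ER-anchored deubiquitinase, was at 93.7 ± 18.8 and 139 ± 27.1 CPM, with overlap (log2 fold change 0.57, edgeR adjusted p = 0.193).

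All 18 genes for ER lectins, mannosidases and quality control were tested, and 0 passed the threshold with edgeR, 1 (*Mogs*) with DESeq2 and 0 with limma voom, with 4 at an unadjusted p under 0.05 in edgeR (17.0% of all genes). The median was 0.02 (0.27 with total counts). *Mogs*, which encodes the glucosidase that makes the first cut in N-glycan trimming, was at 12.3, 10.5 and 9.90 CPM in A7, A8 and A12, and at 19.9, 19.3, 15.9, 14.5 and 17.5 in A24, A25, A26, A29 and A31. The groups did not overlap, and the log2 fold change was 0.67 (SE 0.161, edgeR adjusted p = 0.0818, and between 0.00614 and 0.326 over the alternatives). *Dnajc10*, an ER reductase that acts with EDEM1, was at 15.5 ± 0.504 and 12.6 ± 0.783 CPM without overlap (log2 fold change -0.30, edgeR adjusted p = 0.264). With total counts its log2 fold change was -0.072. *Canx*, the membrane chaperone calnexin, was at 208 ± 69.1 and 148 ± 15.8 CPM, with overlap and with A12 highest, at 286 CPM (edgeR adjusted p = 0.259). Its log2 fold change was -0.49 with all libraries, -0.19 without A12 and -1.01 without A7, A8 and A31. The last of these leaves A12, the highest value, as the only control. *Dnajb9*, a target of the IRE1 and XBP1 arm of the stress response, was also highest in A12, at 57.4 CPM. The other libraries lay between 19.9 CPM (A29) and 42.6 CPM (A24). Without A12 the difference of *Dnajb9* changed sign, with a log2 fold change of 0.07 (-0.35 with all libraries, edgeR adjusted p = 0.592).

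The unfolded protein response, which raises many ERAD genes under ER stress, was read from 23 sensors and targets, all tested. With edgeR 0 of the 23 passed the threshold and 3 had an unadjusted p under 0.05, against 17.0% of all genes. DESeq2 and limma voom also put 0 past it. By DESeq2's Wald test 2 of the 23 had an adjusted p of at most 0.05 but a fold under 1.5, *Dnajc3* (0.0306) and *Atf6b* (0.0482). Of all 14851 genes, 973 had such an adjusted p with DESeq2, at any fold. The median log2 fold change was -0.01 (0.22 with total counts). Without overlap between groups were 2 of the 23, or 8.70% against 11.5% of all genes, in opposite directions. *Dnajc3*, the ER chaperone p58IPK, was at 69.8 ± 12.4 and 49.6 ± 2.02 CPM (log2 fold change -0.49, edgeR adjusted p = 0.122), and *Atf6b*, a paralogue of the sensor ATF6, at 13.1 ± 1.65 and 18.6 ± 2.28 CPM (log2 fold change 0.50, edgeR adjusted p = 0.137). *Creld2* and *Manf*, secreted targets of ER stress, had log2 fold changes of 0.57 each (edgeR adjusted p = 0.192 and 0.349), and *Crebrf*, a regulator of the response, of -0.51 (edgeR adjusted p = 0.422), all 3 with overlap. With 1 library left out, that of *Manf* ran from 0.41 (without A12) to 0.88 (without A8). That of *Crebrf* ran from -0.75 (without A8) to -0.33 (without A12), and was -0.82 with the contractile markers as a covariate.

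*Nfe2l1*, whose protein is cleared through ERAD, overlapped between groups in its RNA. Its level was 523 ± 69.4 CPM in control and 427 ± 60.3 CPM in libraries labelled KO (log2 fold change -0.29, edgeR adjusted p = 0.438). The log2 fold change was -0.18 without A7 and -0.071 with total counts. Transcript levels do not show how much protein was degraded.

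Around *Svip*, 15 other genes of the tables lie within 1000000 bases of either end, and 4 of them were tested. *Gas2*, which encodes a growth arrest protein bound to actin and ends 2196 bases from *Svip*, was at 3.40 ± 0.362 and 2.19 ± 0.437 CPM without overlap (log2 fold change -0.63, edgeR adjusted p = 0.201). *Fancf*, of DNA crosslink repair, was at 0.444 ± 0.103 and 0.480 ± 0.234 CPM (edgeR adjusted p = 0.949), and the pseudogene *Gm7336* at 13.8 ± 1.22 and 21.9 ± 12.5 CPM (edgeR adjusted p = 0.485). *Ano5*, which encodes a membrane protein of muscle, was at 4.03 CPM in A7, 2.46 in A8 and 0.500 in A31, the libraries with muscle RNA, and at 0 in the other 5 (edgeR adjusted p = 0.183). With edgeR 0 of the 4 were past the threshold, and no alternative put one past it. An unadjusted p under 0.05 in edgeR was found for 2 of the 4 (*Ano5* and *Gas2*), against 17.0% of all genes. The log2 fold change of *Ano5* was -4.08, and 1.98 with the contractile markers as a covariate.

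The genes whose pattern over the 8 libraries was most like that of *Svip* were found by Pearson's r of log2 CPM among the other 14850 genes, as a description. All comparisons share the same libraries and groups, and 141 genes had an r over 0.9 and 109 an r under -0.9. The highest was *Ptgr2*, a prostaglandin reductase (r = 0.992, rho = 0.952), at 291 ± 3.09 CPM in control and 167 ± 16.6 CPM in libraries labelled KO. It was followed by *Slc16a7*, the monocarboxylate transporter MCT2 (r = 0.985), *Syncrip*, an RNA-binding protein of the hnRNP family (r = 0.983), *Gnb1*, a G protein beta subunit (r = 0.972), and *Gpt2*, the mitochondrial alanine aminotransferase (r = 0.972). *Gpt2* was at 103 ± 22.5 and 9.01 ± 1.84 CPM, the largest fold of these 5. Among the lowest were *Pla2g4b*, a phospholipase (r = -0.988), *Preb*, the exchange factor that starts COPII vesicles at ER exit sites (r = -0.986), *Mllt1*, a transcription elongation factor (r = -0.984), and *Unc45a*, a myosin chaperone (r = -0.981). *Preb* was at 38.3 ± 2.55 and 57.7 ± 2.72 CPM. Among the members, *Vcp* came closest, at r = 0.942 (rho = 0.786) and place 49, and *Rnf170* was at r = 0.934 and place 63. All r values were computed on the TMM scale only, and with total counts the groups overlapped for *Vcp*. The other 7 members lay between r = -0.61 (*Syvn1*) and 0.58 (*Sel1l*).

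HuR binds U-rich and AU-rich stretches of 3′ UTRs, and the 3′ UTR of each gene's most abundant coding transcript was searched on its sense strand. The letters ATTTA occurred 9 times in the 2592 bases of *Svip*, or 3.47 per 1000 bases, a density above that of 85.3% of 14120 genes. Among 1679 genes with a 3′ UTR within 20% of this length the median was 4, and 88.1% had fewer than *Svip*. The longer TATTTAT occurred 1 time, as in 44.7% of those genes at least once, and TTTTTTT at 2 overlapping positions, the median of those genes. *Vcp*, *Derl2*, *Herpud1* and *Os9*, with 3′ UTRs of 388 to 622 bases, held none of the 3. *Edem1* held 5 ATTTA, 2 TATTTAT and 5 TTTTTTT in 3792 bases, the last 2 more often than *Svip*, and *Sel1l* held 7 ATTTA, 1 TATTTAT and 0 TTTTTTT in 3801. Of ATTTA alone, with neither of the others, *Derl1* held 2 in 2266, *Syvn1* 1 in 1052 and *Rnf170* 5 in 2791 bases. A match is no evidence of binding. The sites of the heptamer, of the T run and of 1 pentamer in *Svip* are shown on the transcribed strand of GRCm38 with the matched letters in capitals, since these are the kinds of site HuR is known to bind. All lie in the last exon, in the 3′ UTR.
Heptamer, chr7:51998970-51998992, minus strand: ttcttctgTATTTATcaaagaac
T run, chr7:51997664-51997686, minus strand: taaatggtTTTTTTTatctagtt
Pentamer, chr7:51999172-51999192, minus strand: ctctgctaATTTAttttgtgt

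**Figure D3:**
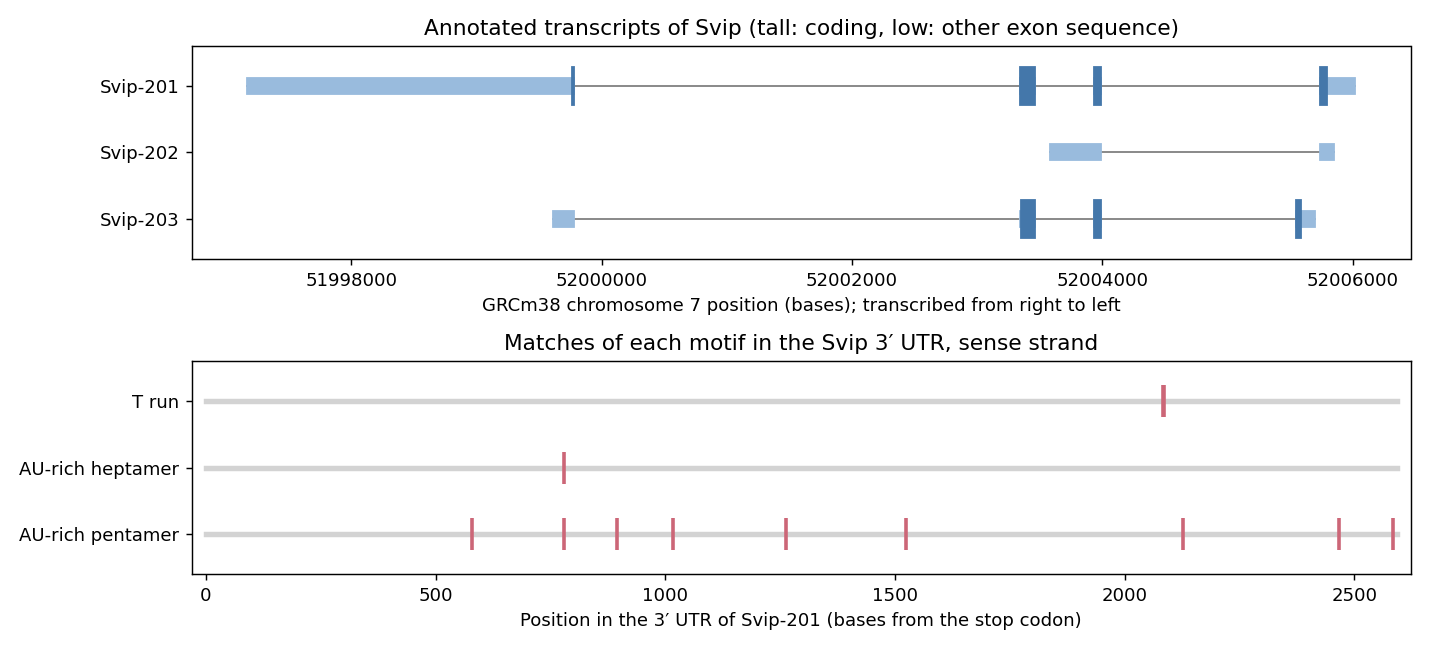
Annotated transcripts of *Svip* on chromosome 7 of GRCm38 (upper panel, position in bases, coding parts tall) and the places of the 3 motifs along the 3′ UTR of the main transcript (lower panel, bases from the stop codon). The 9 pentamers lie between bases 579 and 2588 of the 3′ UTR of 2592 bases, and the heptamer overlaps 1 of them.

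ERAD genes are raised under ER stress through ER stress response elements, which were looked for in RefSeq promoters of GRCm38.p6, from 250 bases before to 50 after each start. The first form has CCAAT, then 9 bases, then CCACG, and the second ATTGG, then 1 base, then CCACG, both searched on both strands. Promoters were given for 8 of the 9 members, all but *Derl1*. The first form was in 0.119% of all 32851 promoters and the second in 0.0365%. Among the members, *Syvn1* held the first and *Herpud1* the second, while neither was in the 2 windows of *Svip* or in those of the other 5. Of 19 unfolded protein response genes with a promoter, 5 held the first form. The matches are shown with the fixed letters in capitals, as these are the members that hold a match, and neither gene was past the threshold.
*Syvn1*, chr19:6046532-6046550, plus strand: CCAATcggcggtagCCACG
*Herpud1*, chr8:94386377-94386387, plus strand: ATTGGgCCACG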

How the data were processed

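Poly(A) RNA-seq of BAT from 8 mice was read from 1 table per library. The authors deposited estimated counts per transcript, not normalized, in which reads matching several transcripts had been divided between them; the study's methods name CLC Genomics Workbench for mapping, and the program that wrote these counts is not given in the sources used here. Whether strand was used is not given either. From these files, the 105129 transcripts were added up within each gene symbol, and the sums were rounded. Genes kept by edgeR's filterByExpr were scaled with TMM factors, and its quasi-likelihood test was applied, adjusted by Benjamini-Hochberg over 14851 genes, after the same steps had been tested on simulated data. The threshold was an adjusted p of at most 0.05 and a fold of at least 1.5. Log2 CPM used a prior count of 2. TPM, transcript types and 3′ UTRs used GENCODE M21, in which 103723 transcript identifiers were found without regard to version. Tools were R 4.3.3, edgeR 4.0.16, limma 3.58.1, DESeq2 1.42.0, Python 3.11.15, numpy 2.4.6, pandas 2.3.3 and matplotlib 3.10.9. Totals ran from 17558090 to 67498055 counts, and 3 counts, the smallest share taken as detected, are at most 0.169 CPM on the TMM scale, in A24 (counting error only). P-values set the difference between groups against the spread between libraries.

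The members and lists were chosen with earlier results of these data known. Genes named are the 9 members, *Elavl1*, wider-list genes past the threshold, the 3 largest log2 fold changes per list at a mean of at least 5 CPM, list genes whose groups do not overlap, genes among the 5 most and the 5 least like *Svip*, tested neighbours of *Svip*, and marker lists. Alternatives were DESeq2's size factors, total counts, DESeq2's Wald test, limma voom with quality weights, the filter dropped or set to 10 counts in each library, a contractile marker covariate, each library left out, A24 and A25 left out, A7, A8 and A31 left out, the most abundant transcript of each gene, no fold threshold, Spearman's rho and the longest transcript's length. A search of proteins for a p97-binding motif was not run.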

Additional observations from a re-analysis of the deposited data

Results flagged for a closer look

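In 61 sets of 5 values from libraries labelled KO, 1 value lay far from the other 4 in 6 sets, where chance alone gives about 1 in 20. The measure is the gap to the nearest value divided by the range, with a limit of 0.71. *Derl1* was high in A24 (0.716), at 229 CPM, and so were *Ube2g1* (0.725), at 24.4 CPM, and the Schwann cell markers (0.775), at 100 CPM summed. *Derl2* per length was low in A26 (0.735), at 20.2 TPM. The contractile markers (0.919) and *Ano5* (1) were high in A31, at 559 and 0.500 CPM.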

How the results depend on the processing

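*Svip* was lower under all 17 alternatives of scaling, test, filter, covariate and libraries, with log2 fold changes from -1.59 to -1.25, the last with total counts, which moved the median of all genes to 0.23. Because *Svip* was picked for a stable fall in these same libraries, this is a description and not a separate result. *Vcp* was lower in all 17 and past the threshold in 0 of them. The count of genes past the threshold, 105, was 818 with DESeq2, 15 with the contractile covariate and 5 without A24 and A25. With 1 library left out it ran from 10 to 190 (13 without A7, 190 without A12, 15 without A25, 10 without A26, 14 without A29 and 17 without A31). Without A7, A8 and A31 only control A12 remains, and no count is given. Total counts gave 25 lower and 96 higher genes, against 69 and 36. The wider lists had 2 genes past the threshold with DESeq2 and 0 with total counts, with the covariate or without A24 and A25. With 1 library left out they had from 0 to 1. No alternative put an unfolded protein response gene or a neighbour of *Svip* past the threshold. Signs turned with total counts for *Derl2* (0.14), *Edem1* (0.040) and *Os9* (0.17), with the covariate for *Herpud1* (-0.014) and *Ano5* (1.98), and without A24 and A25 for *Gm7336* (-0.072) and *Fancf* (-0.17). With the most abundant transcript alone they turned for *Derl2* (0.043), *Syvn1* (-0.0045) and *Sel1l* (0.093). With 1 library left out, log2 fold changes ran from -0.34 to 0.047 for *Derl2*, -0.0055 to 0.22 for *Herpud1*, -0.21 to 0.061 for *Os9*, -0.52 to 0.067 for *Dnajb9* and -0.19 to 0.28 for *Fancf*. With the longest transcript's length, *Derl1* was at 69.5 and *Derl2* at 9.77 TPM in control, which moved *Derl2* from place 4 to place 8. Spearman's rho shared 0 of its 5 highest genes with Pearson's r. The causes were not tested.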
